A study of Mus musculus with 4 samples.

Results

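The genes described here are those of the hyaluronan matrix: the synthases Has1, Has2 and Has3, the crosslinking and aggregating proteins Tnfaip6, Ptx3 and Vcan, the breakdown genes Hyal1, Hyal2 and Cemip, and the receptor Cd44. They are 10 of the 32285 genes in the count tables, matched by gene symbol, and all 10 were found. Single-cell RNA-seq (10x Genomics 3′ libraries) had been made from cryopreserved mononuclear cells of mouse skeletal muscle at 14 weeks of age. The libraries came from mdx5cv quadriceps, wild-type (WT) quadriceps, mdx5cv diaphragm and WT diaphragm. The mdx5cv strain carries a mutation of the dystrophin gene and is a model of Duchenne muscular dystrophy, and no library had a further treatment or allele according to the labels. Each genotype and muscle is 1 library, with an unstated number of mice. There is therefore no replicate and no test: differences between animals, muscles, handling and libraries cannot be told apart, and every interval below is a 95% interval for counting error only.

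Hyaluronan is a long sugar polymer of the extracellular matrix. The Has enzymes sit in the plasma membrane and spin it out of the cell from UDP-sugar precursors. TSG-6, the product of Tnfaip6, moves protein heavy chains onto hyaluronan, the pentraxin encoded by Ptx3 holds such chains together, and the proteoglycan versican, encoded by Vcan, binds along the polymer and swells it with water. The hyaluronidases Hyal1 and Hyal2 and the hyaluronan-binding protein Cemip take part in breaking it down, and CD44 is its main cell-surface receptor. A matrix rich in hyaluronan is laid down in injured and inflamed tissues, skeletal muscle included.

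The libraries held 62780685, 18837891, 49612759 and 40226833 UMIs (unique molecular identifiers, each a counted mRNA molecule) in mdx5cv quadriceps, WT quadriceps, mdx5cv diaphragm and WT diaphragm. In the same order, 8334, 4911, 7402 and 7516 barcodes passed 1000 UMIs, 500 genes and at most 15% mitochondrial UMIs, with a median of 5328.5, 2055, 4894.5 and 4355.5 UMIs. Pairs of libraries shared 5 to 17 of these barcodes. Cells were put in a class when at least 3 of its marker genes stood above free RNA. Fibro-adipogenic progenitor (FAP)-like cells, the mesenchymal cells of muscle, numbered 1455, 909, 2997 and 6162, which is 17.5%, 18.5%, 40.5% and 82.0% of the cells kept. The genes that led this class by fold over the others included Lum, Pdgfra, Smoc2 and Pi16, with no tenocyte marker among the first 10. WT diaphragm stood apart in the summed UMIs of the immediate-early genes Fos, Jun and Atf3. Their median over FAP-like cells was 2.82, 3.43, 5.63 and 36.7 per 10000 UMIs, and 9.21%, 14.4%, 18.8% and 69.2% of those cells were stress-high, meaning 20 or more per 10000. A level below is CPM, the gene's UMIs per 1000000 UMIs when all cells of one class in one library are added up. Levels are compared between cells and libraries, never between genes.

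The FAP-like cells held most UMIs of the synthases Has1 and Has2 and of Ptx3. Of all Has1 UMIs in kept cells, 78.7%, 89.7%, 86.8% and 97.4% lay in FAP-like cells of mdx5cv quadriceps, WT quadriceps, mdx5cv diaphragm and WT diaphragm. For Has2 the shares were 82.2%, 91.3%, 88.0% and 98.5%. Ptx3 had 81.0%, 89.7% and 94.7% of its UMIs there in mdx5cv quadriceps, mdx5cv diaphragm and WT diaphragm, and too few UMIs in WT quadriceps for a share to be read. Cd44 was spread wider, with 16.1%, 17.0%, 22.1% and 58.6%. These shares follow the number of cells of each class as well as their levels. In mdx5cv quadriceps a further 18.7% of the Has1 UMIs lay in barcodes that carried markers of more than 1 lineage and were left out of every class.

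**Figure D1:**
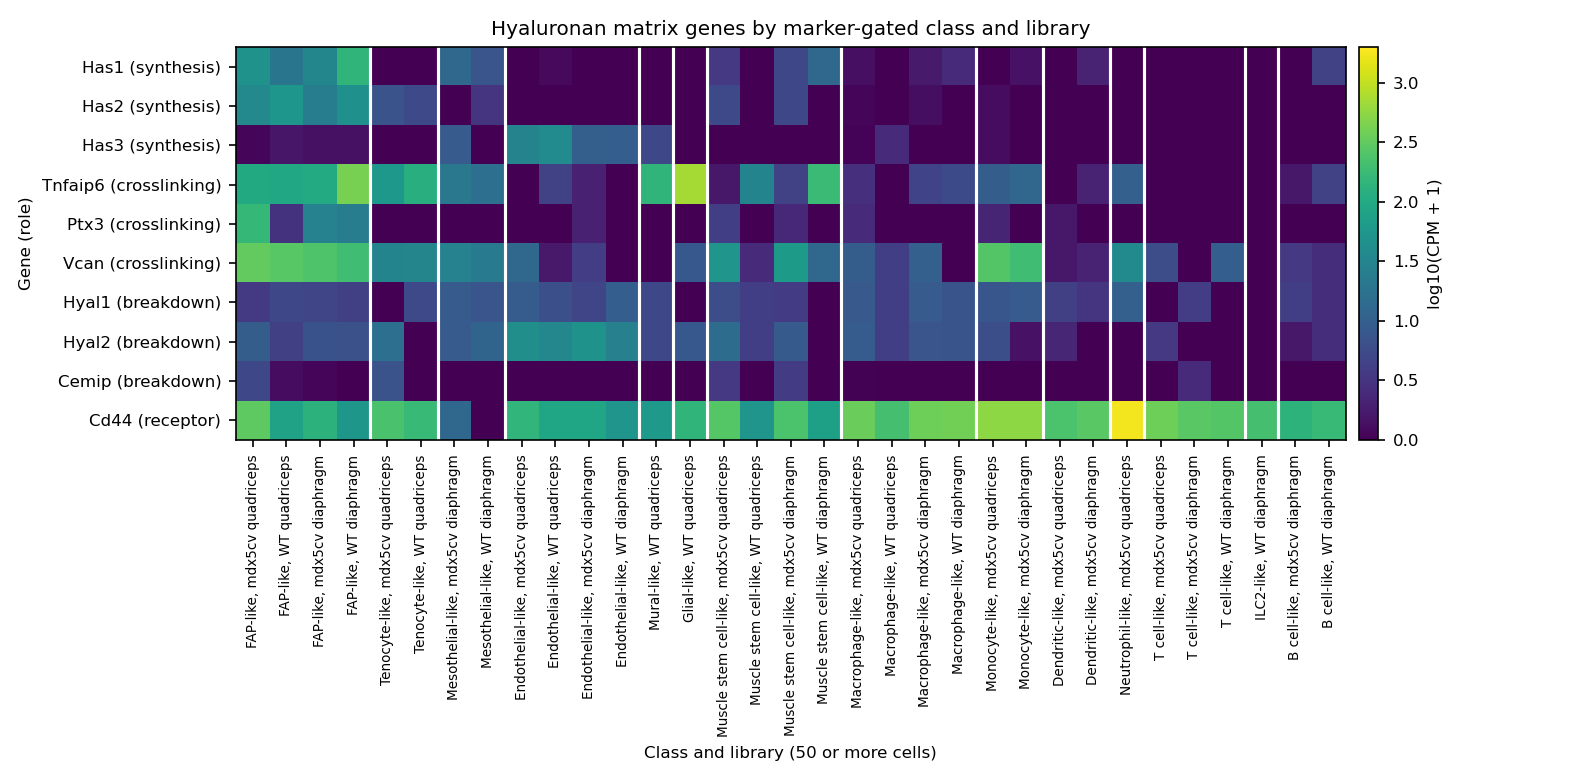
Level of each of the 10 genes (rows) in each marker-gated class and library with at least 50 cells (columns), as log10(CPM + 1) of summed UMIs, 1 library per group. Has1 and Has2 are brightest in FAP-like columns and Has3 in the quadriceps endothelial-like ones. Tnfaip6 is also bright in glial-like cells of WT quadriceps and muscle stem cell-like cells of WT diaphragm, Ptx3 is bright in FAP-like columns other than WT quadriceps, and Cd44 is present in most classes.

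The promoters of 3 of these genes are shown because Has1 and Tnfaip6 were higher in cells with more Fos and Jun while Ptx3 was not in every library, and Fos and Jun proteins bind the AP-1 motif. In the GENCODE M21 annotation of GRCm38, Has1 lies at chr17:17843323-17855205 on the minus strand, Tnfaip6 at chr2:52038009-52056686 on the plus strand and Ptx3 at chr3:66219910-66225805 on the plus strand. Has2 lies at chr15:56665627-56694539, Vcan at chr13:89655312-89742509 and Cd44 at chr2:102811141-102901665, all on the minus strand. Each line is the 250 bases before the RefSeq transcription start on GRCm38.p6, read 5′ to 3′ on the gene's own strand, with an AP-1 motif in capitals where there is one.
Has1, chr17:17855189-17855438, minus strand: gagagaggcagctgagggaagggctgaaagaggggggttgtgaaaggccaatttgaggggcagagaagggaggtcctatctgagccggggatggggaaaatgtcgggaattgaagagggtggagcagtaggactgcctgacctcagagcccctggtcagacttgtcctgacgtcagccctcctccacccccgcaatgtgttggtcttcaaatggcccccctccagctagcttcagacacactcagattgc
Tnfaip6, chr2:52037863-52038112, plus strand: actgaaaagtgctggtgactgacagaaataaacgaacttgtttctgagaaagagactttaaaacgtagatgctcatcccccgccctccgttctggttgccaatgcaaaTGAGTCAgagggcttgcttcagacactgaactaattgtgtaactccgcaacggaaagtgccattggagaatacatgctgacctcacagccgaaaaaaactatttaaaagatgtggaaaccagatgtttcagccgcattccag
Ptx3, chr3:66219637-66219886, plus strand: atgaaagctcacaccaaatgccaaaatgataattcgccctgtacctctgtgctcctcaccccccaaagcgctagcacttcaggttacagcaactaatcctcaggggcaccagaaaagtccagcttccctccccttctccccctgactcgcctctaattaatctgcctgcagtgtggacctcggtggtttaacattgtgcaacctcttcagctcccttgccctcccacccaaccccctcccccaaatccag
The motif searched was TGANTCA, which reads the same on both strands. It occurred in 2217 of 32851 promoters of this length, or 6.75%. Among the 8 genes with a RefSeq promoter, Has2 and Has3 not being among them, the Tnfaip6 promoter held it as TGAGTCA, 142 to 136 bases before the start. The Has1 and Ptx3 windows hold no such letters. No other motif of the Fos, Jun or Atf3 proteins was searched, so these windows cannot be said to lack a site for them. A match of letters is a description of the window and not evidence of binding. A loose NF-kB motif (GGG, then 5 free bases, then CC), searched on both strands, was in 45.8% of all promoters, and was in those of Vcan, Hyal2, Cemip and Cd44 among the 8 genes. The TATA box letters TATAAA, also searched on both strands, were in 12.4% of all promoters and in that of Cemip.

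Among the synthases, Has1 had genotype differences that ran opposite ways in the muscles. FAP-like cells had 481 Has1 UMIs or 47.0 CPM (42.9 to 51.4) in mdx5cv quadriceps, against 61 UMIs or 18.1 CPM (13.9 to 23.3) in WT quadriceps. The ratio of mdx5cv to WT was 2.59 (1.98 to 3.45). In diaphragm, Has1 had 573 UMIs or 31.9 CPM (29.4 to 34.6) in mdx5cv, against 4240 UMIs or 142 CPM (138 to 147) in WT. The ratio was 0.224 (0.205 to 0.245). The WT libraries are thus the lowest and the highest of the 4, with the mdx5cv libraries between them, and no interval of one library overlaps that of another. The WT diaphragm value stands beside 69.2% stress-high cells, and levels with and without those cells are given below. In a sum over cells, fewer cells with a transcript and less of it in each cell cannot be told apart. After every cell was thinned to 1000 UMIs, 4.19%, 1.65%, 2.40% and 7.87% of FAP-like cells had a Has1 UMI, in the same order as before. Of the endothelial-like cells, taken as a class that lacks Has1, 0 of 419, 2318, 347 and 50 cells had one after thinning. Their median depth was 2199, 1706, 2272 and 2052.5 UMIs, beside 5241, 3487, 4845 and 4531 UMIs in FAP-like cells.

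Has2, the synthase that makes most hyaluronan during embryonic development, was lower in mdx5cv than in WT in both muscles. It had 350 UMIs or 34.2 CPM (30.7 to 38.0) in mdx5cv quadriceps, against 179 UMIs or 53.2 CPM (45.7 to 61.6) in WT quadriceps, a ratio of 0.643 (0.536 to 0.775). In diaphragm it had 426 UMIs or 23.7 CPM (21.5 to 26.1) in mdx5cv, against 1307 UMIs or 43.9 CPM (41.5 to 46.3) in WT, a ratio of 0.541 (0.484 to 0.604). Neither ratio reached 2-fold, the size used here to call a gene. The Has2 gene overlaps the antisense gene Has2os, and the counts do not state how reads of such pairs were assigned. Has3 was near 0 in FAP-like cells, with 1, 2, 7 and 12 UMIs.

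Among the crosslinking genes, Tnfaip6 was lower in mdx5cv than in WT diaphragm and differed little in quadriceps. It had 1022 UMIs or 99.95 CPM (93.9 to 106) in mdx5cv quadriceps, against 304 UMIs or 90.3 CPM (80.5 to 101.1) in WT quadriceps, and the ratio of 1.11 (0.972 to 1.26) has an interval that spans 1. In diaphragm it had 1864 UMIs or 104 CPM (99.2 to 109) in mdx5cv, against 12486 UMIs or 419 CPM (412 to 427) in WT, a ratio of 0.248 (0.236 to 0.260). So 3 libraries lay close together and WT diaphragm lay above them.

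Ptx3 had the widest spread over the 4 libraries among the 6 genes that reached 10 CPM in FAP-like cells. It had 1615 UMIs or 158 CPM (150 to 166) in mdx5cv quadriceps, against 7 UMIs or 2.08 CPM (0.841 to 4.29) in WT quadriceps, a ratio of 75.9 (36.8 to 189). In diaphragm it had 497 UMIs or 27.7 CPM (25.3 to 30.2) in mdx5cv, against 715 UMIs or 24.0 CPM (22.3 to 25.8) in WT, and the ratio was 1.15 (1.03 to 1.30). Free RNA, judged from the barcodes with 10 to 100 UMIs, would put 4.44, 3.35, 3.64 and 3.02 CPM of Ptx3 into FAP-like cells of mdx5cv quadriceps, WT quadriceps, mdx5cv diaphragm and WT diaphragm. The WT quadriceps level is below that background and the other 3 are above it. The share of FAP-like cells with a Ptx3 UMI after thinning was 6.60%, 0.220%, 1.5% and 1.36%, against 0 thinned endothelial-like cells in every library.

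Over the 4 libraries together, the versican gene Vcan ranged from 194 to 325 CPM in FAP-like cells. It stood at 325 CPM in mdx5cv quadriceps against 279 CPM in WT quadriceps, a ratio of 1.17 (1.08 to 1.26). In diaphragm it stood at 246 CPM in mdx5cv against 194 CPM in WT, a ratio of 1.27.

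The breakdown genes were sparse in FAP-like cells. Hyal1, the lysosomal hyaluronidase, had 2.64, 4.16, 3.84 and 3.26 CPM in mdx5cv quadriceps, WT quadriceps, mdx5cv diaphragm and WT diaphragm, and its counts are uncertain because it overlaps Naa80 and Hyal3 on the same strand. Hyal2, which is anchored at the cell surface, had 8.41 CPM in mdx5cv quadriceps against 3.27 CPM in WT quadriceps (ratio 2.57, 1.37 to 5.35), and 5.85 CPM in mdx5cv diaphragm against 5.51 CPM in WT diaphragm. Cemip had 43 UMIs in mdx5cv quadriceps against 1 in WT quadriceps (ratio 14.2, 2.41 to 572), and 2 in mdx5cv diaphragm against 0 in WT diaphragm. All 3 stayed under the 10 CPM needed for a gene to be counted as tested.

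The receptor Cd44 stood higher in mdx5cv than in WT FAP-like cells, in quadriceps and in diaphragm. It stood at 306 CPM (295 to 317) in mdx5cv quadriceps against 77.9 CPM (68.7 to 87.9) in WT quadriceps, a ratio of 3.93 (3.46 to 4.47). In diaphragm it stood at 133 CPM (127 to 138) in mdx5cv against 54.5 CPM (51.8 to 57.2) in WT, a ratio of 2.44 (2.29 to 2.60). Both mdx5cv libraries lay above both WT libraries. Leukocytes carry much Cd44, so their markers were summed in the same cells. The macrophage list had 118 CPM in mdx5cv quadriceps against 9.21 CPM in WT quadriceps, and 46.5 CPM in mdx5cv diaphragm against 4.53 CPM in WT diaphragm. All 7 macrophage markers had UMIs in every library. The 5 monocyte markers summed to 193 CPM against 59.7 CPM, and to 174 CPM against 34.9 CPM, in the same pairs, with 1 of the 5 at 0 in each WT library. The 6 neutrophil markers summed to 29.4 CPM against 1.78 CPM, and to 2.73 CPM against 1.51 CPM. Of the other leukocyte lists, the dendritic one also ran higher in mdx5cv, with 42.2 against 11.3 CPM and 24.3 against 7.59 CPM. The ILC2 list ran lower in mdx5cv, with 139 against 237 CPM in quadriceps and 177 against 262 CPM in diaphragm. The B list had 8.61 against 6.54 CPM in quadriceps and 10.6 against 26.0 CPM in diaphragm, and the T and NK lists stayed between 0 and 4.51 CPM in every library. Free RNA would bring 21.7 and 5.30 CPM of Cd44 into mdx5cv and WT quadriceps FAP-like cells, and 9.73 and 3.17 CPM into those of mdx5cv and WT diaphragm. The part of these other cells in the Cd44 difference was not tested.

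**Figure D2:**
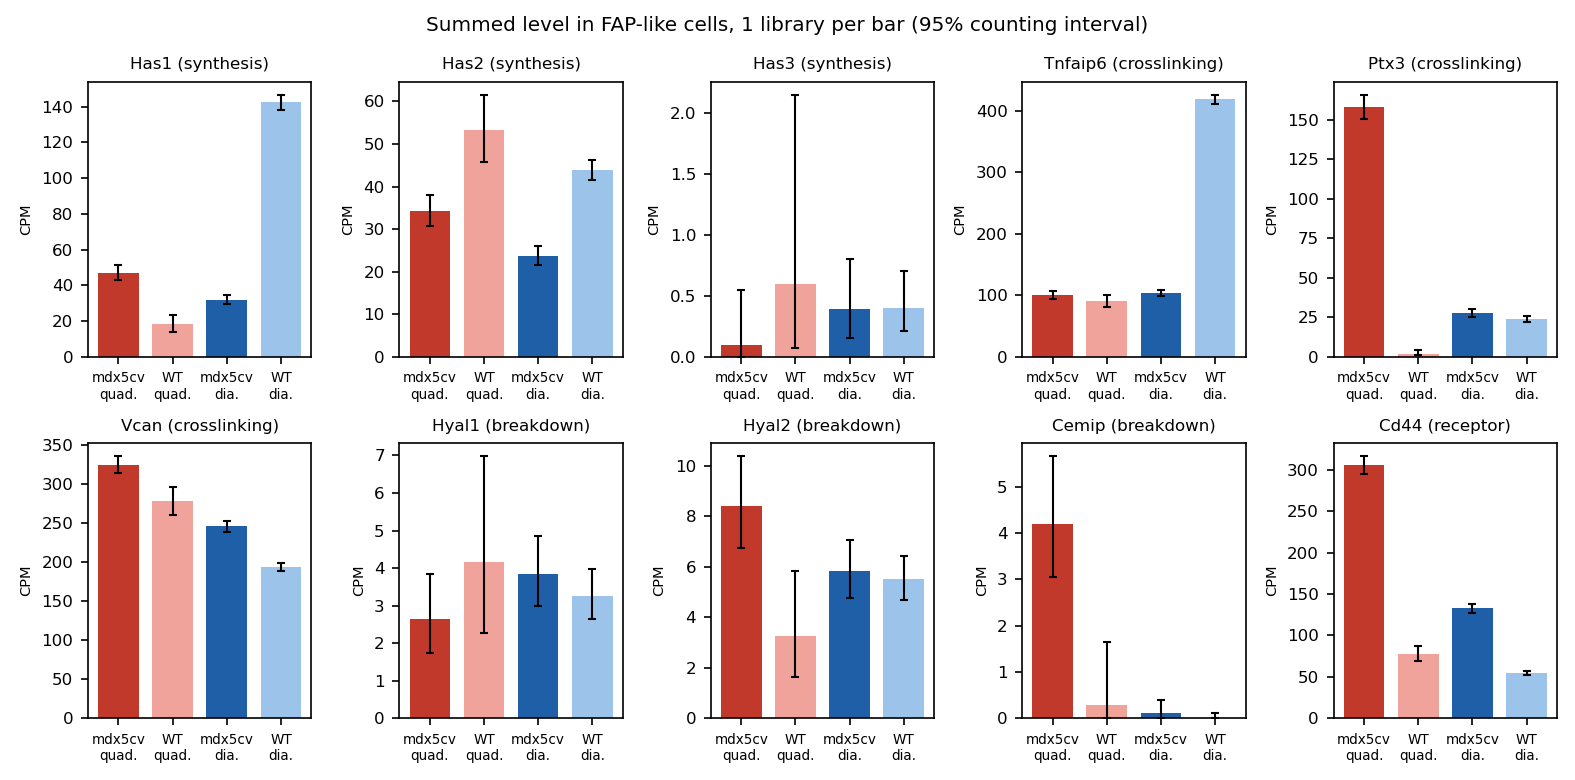
CPM of summed UMIs in FAP-like cells for each of the 10 genes (a panel each, with its own axis from 0), 1 library per bar, with 95% Poisson intervals. WT diaphragm is the highest library for Has1 at 142 CPM and Tnfaip6 at 419 CPM, and mdx5cv quadriceps is the highest for Ptx3 at 158 CPM and Cd44 at 306 CPM.

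Of the 10 genes, the 6 with at least 10 CPM in either library could be called at 2-fold; the other 4 (Has3, Hyal1, Hyal2 and Cemip) could not. In quadriceps FAP-like cells, Has1, Ptx3 and Cd44 were past 2-fold higher in mdx5cv, where 8.92% of all 9336 genes tested were, and no member was past 2-fold lower, where 6.81% were. In diaphragm, Cd44 was past 2-fold higher in mdx5cv, where 4.02% of 8748 genes were, and Has1 and Tnfaip6 past 2-fold lower, where 4.53% were. At 1.5-fold in quadriceps, Has2 was also lower in mdx5cv, where 15% of genes were, and Has1, Ptx3 and Cd44 were the members higher, where 19.6% were.

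Between muscles, mdx5cv diaphragm had no member past 2-fold higher than mdx5cv quadriceps (1.36% of 9000 genes were) and 2 past 2-fold lower (4.37% were). These were Ptx3, with a ratio of 0.175, and Cd44, with a ratio of 0.434. WT diaphragm had 3 members past 2-fold higher than WT quadriceps (2.99% of 8889 genes were) and none lower (4.96% were). They were Has1 at a ratio of 7.85 (6.10 to 10.3), Tnfaip6 at 4.64 (4.14 to 5.22) and Ptx3 at 11.5 (5.57 to 28.8), the last against 2.08 CPM in WT quadriceps. These comparisons share libraries with the genotype comparisons.

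Stress-high FAP-like cells had more Has1 and Tnfaip6 than stress-low ones in every library. Has1 had 84.4 CPM in stress-high against 44.3 CPM in stress-low cells of mdx5cv quadriceps, and 59.7 against 11.1 CPM in WT quadriceps (ratio 5.37, 3.13 to 9.16). It had 56.2 against 27.2 CPM in mdx5cv diaphragm and 168 against 79.3 CPM in WT diaphragm. Tnfaip6 had 180 against 94.1 CPM in mdx5cv quadriceps and 169 against 77.1 CPM in WT quadriceps. In diaphragm it had 149 against 94.965 CPM in mdx5cv and 462 against 312 CPM in WT. Vcan ran the other way in every library, with ratios of stress-high to stress-low of 0.502, 0.583, 0.617 and 0.704 in mdx5cv quadriceps, WT quadriceps, mdx5cv diaphragm and WT diaphragm. Ptx3 did not follow 1 direction: the ratio was 0.833 (0.668 to 1.03) in mdx5cv quadriceps, 0.811 (0.618 to 1.05) in mdx5cv diaphragm and 1.47 (1.23 to 1.78) in WT diaphragm. Cd44 ranged from 0.751 to 1.23.

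Over finer bins of stress UMIs the WT diaphragm series was graded. From cells with none, through bins bounded at 5, 10, 20, 40 and 80 per 10000, Has1 stood at 15.6, 37.9, 80.04, 113, 143, 167 and 198 CPM in WT diaphragm. Tnfaip6 stood at 127, 195, 354, 385, 399, 468 and 528 CPM. Each bin was above the one below it for both genes. In mdx5cv diaphragm, Has1 stood at 24.5, 29.3, 27.3, 26.1, 51.6, 56.3 and 124 CPM, the last from 33 cells, so that it was near level below 20 per 10000 and higher beyond. In the cells with no stress UMI, Has1 was 24.5 CPM in mdx5cv against 15.6 CPM in WT diaphragm, the WT value from 13 UMIs. In mdx5cv quadriceps, Has1 stood at 33.6 CPM in cells with no stress UMI and at 98.0 CPM in the bin of 40 to 80. In WT quadriceps it stood at 8.21 CPM in cells with none, and 18 of the 29 Has1 UMIs of its stress-high cells lay in the 22 cells at 80 or more. Ptx3 in mdx5cv diaphragm was highest in the cells with no stress UMI, at 56.2 CPM, beside 7.27 to 32.0 CPM in the other bins, and 1 cell of that library held 93 of its UMIs.

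**Figure D3:**
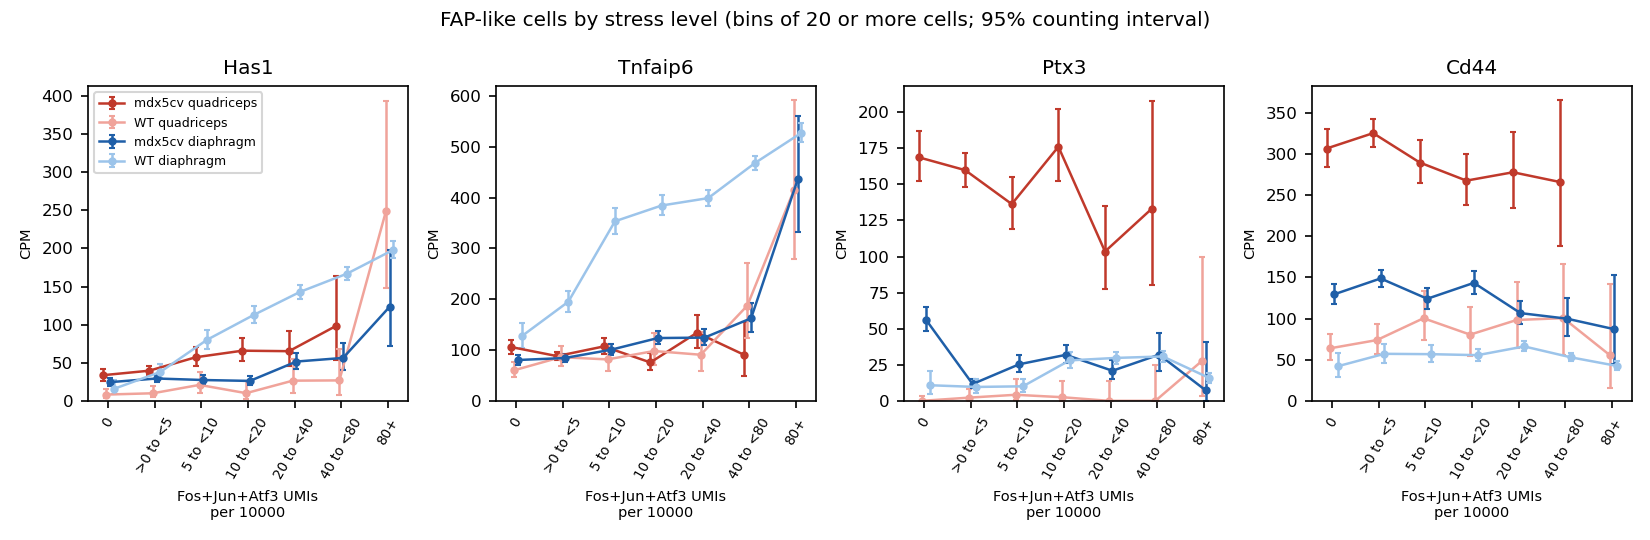
CPM of summed UMIs of Has1, Tnfaip6, Ptx3 and Cd44 (y axis) in FAP-like cells by bin of Fos + Jun + Atf3 UMIs per 10000 (x axis, low to high) in each library, with 95% Poisson intervals and bins of 20 or more cells. In WT diaphragm Has1 goes up bin by bin to 198 CPM and Tnfaip6 to 528 CPM.

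The diaphragm difference in Has1 thus depended on which cells were kept. Within single bins from 5 to under 80 per 10000, the ratio of mdx5cv to WT was 0.341, 0.232, 0.360 and 0.338. It was 0.623 (0.362 to 1.002) at 80 or more and 0.773 (0.578 to 1.04) above 0 and under 5. In cells with no stress UMI it was 1.57 (0.869 to 3.07). Without the stress-high cells, Has1 had 27.2 CPM in mdx5cv against 79.3 CPM in WT diaphragm, a ratio of 0.342 (0.302 to 0.388). Without every cell at 5 or more per 10000, which left 1431 mdx5cv and 616 WT cells, it had 27.5 against 30.8 CPM, a ratio of 0.894 (0.691 to 1.17) whose interval spans 1. Tnfaip6 stayed lower in mdx5cv at both steps, with 94.965 against 312 CPM (ratio 0.304) and then 82.8 against 173 CPM (ratio 0.478, 0.424 to 0.538). The diaphragm ratio of Ptx3 went up to 2.85 (1.90 to 4.45) at the stricter step, at 28.5 CPM in mdx5cv against 10.0 CPM in WT. That ratio may rest on few cells, since 13 of 2997 mdx5cv diaphragm cells held 50% of the Ptx3 UMIs and 1 cell held 93. Cd44 hardly moved, at 2.52 and then 2.70.

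The quadriceps differences did not shrink when such cells were left out. Has1 had 44.3 CPM in mdx5cv against 11.1 CPM in WT quadriceps without the stress-high cells, a ratio of 3.99 (2.78 to 5.90). At the stricter step it had 37.6 against 8.99 CPM, a ratio of 4.18, from 923 mdx5cv and 550 WT cells. Ptx3 had ratios of 92.0 and 163, the second against 2 UMIs in WT, and Cd44 had 4.09 and 4.67. WT diaphragm remained above WT quadriceps at the stricter step for Has1 (ratio 3.42) and Tnfaip6 (ratio 2.41). Without the stress-high cells the share of all genes past 2-fold higher and lower in mdx5cv was 9.21% and 6.82% in quadriceps, and 3.9% and 4.54% in diaphragm.

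**Figure D4:**
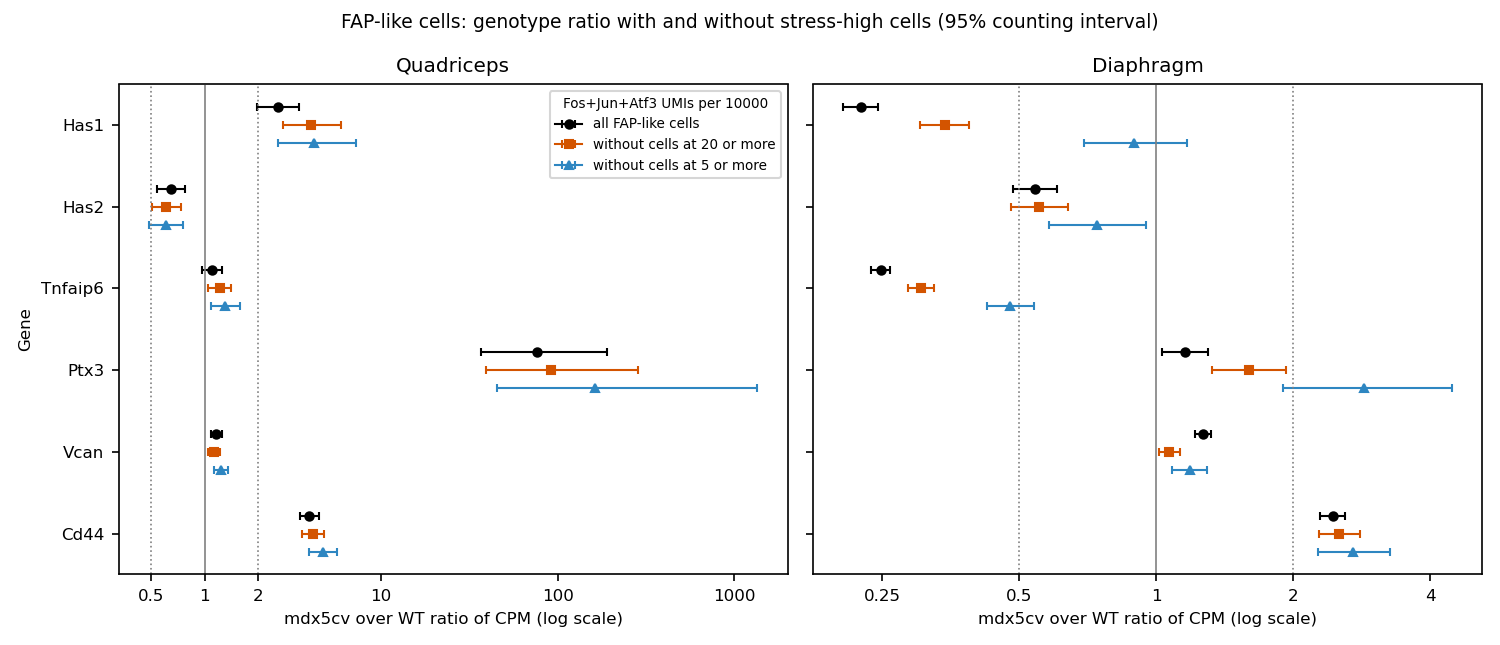
Ratio of mdx5cv to WT CPM in FAP-like cells (log axis, 95% counting intervals, dotted lines at 2-fold) for 6 genes in quadriceps and diaphragm, with all cells and with cells at 20 or more, or 5 or more, stress UMIs per 10000 left out. The diaphragm ratio of Has1 moves from 0.224 to 0.894, while that of Cd44 stays between 2.44 and 2.70.

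In the 3 libraries other than WT quadriceps, Tnfaip6 and Ptx3 were higher in the FAP-like cells that had a Has1 UMI. After thinning to 1000 UMIs, the cells with a Has1 UMI numbered 61 in mdx5cv quadriceps, 72 in mdx5cv diaphragm and 485 in WT diaphragm, and 15 in WT quadriceps, which were too few to read. In mdx5cv quadriceps, Tnfaip6 had 705 CPM in cells with Has1 against 97.6 CPM in cells without it, a ratio of 7.23 (5.004 to 10.2). The ratio was 5.19 (3.52 to 7.44) in mdx5cv diaphragm, at 472 against 90.9 CPM, and 3.74 (3.40 to 4.11) in WT diaphragm, at 1175 against 314 CPM. Ptx3 had 885 against 146 CPM in mdx5cv quadriceps, 458 against 16.8 CPM in mdx5cv diaphragm and 111 against 12.7 CPM in WT diaphragm, with ratios of 6.08 (4.42 to 8.24), 27.4 (17.0 to 43.4) and 8.78 (6.05 to 12.7). For Vcan the ratios were 0.89, 1.27 and 1.43, and for Cd44 they were 1.70, 2.32 and 1.57, so the receptor and versican differed less. Has2 had 4.32 (1.63 to 9.82) and 3.09 (2.23 to 4.21) in mdx5cv quadriceps and WT diaphragm, and 1.16 (0.138 to 4.35) from 2 UMIs in mdx5cv diaphragm. Among stress-low cells alone, the Tnfaip6 ratios were 9.04, 5.46 and 9.78, and the Ptx3 ratios were 5.62, 39.2 and 31.7, in the same library order. Cells are not replicates, and these ratios describe each library. The Ptx3 ratios of mdx5cv diaphragm may rest on few cells, since 13 of its 2997 FAP-like cells held 50% of the Ptx3 UMIs. In that library 1 cell held 93 Ptx3 UMIs before thinning, and a counting interval does not take in such clustering.

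**Figure D5:**
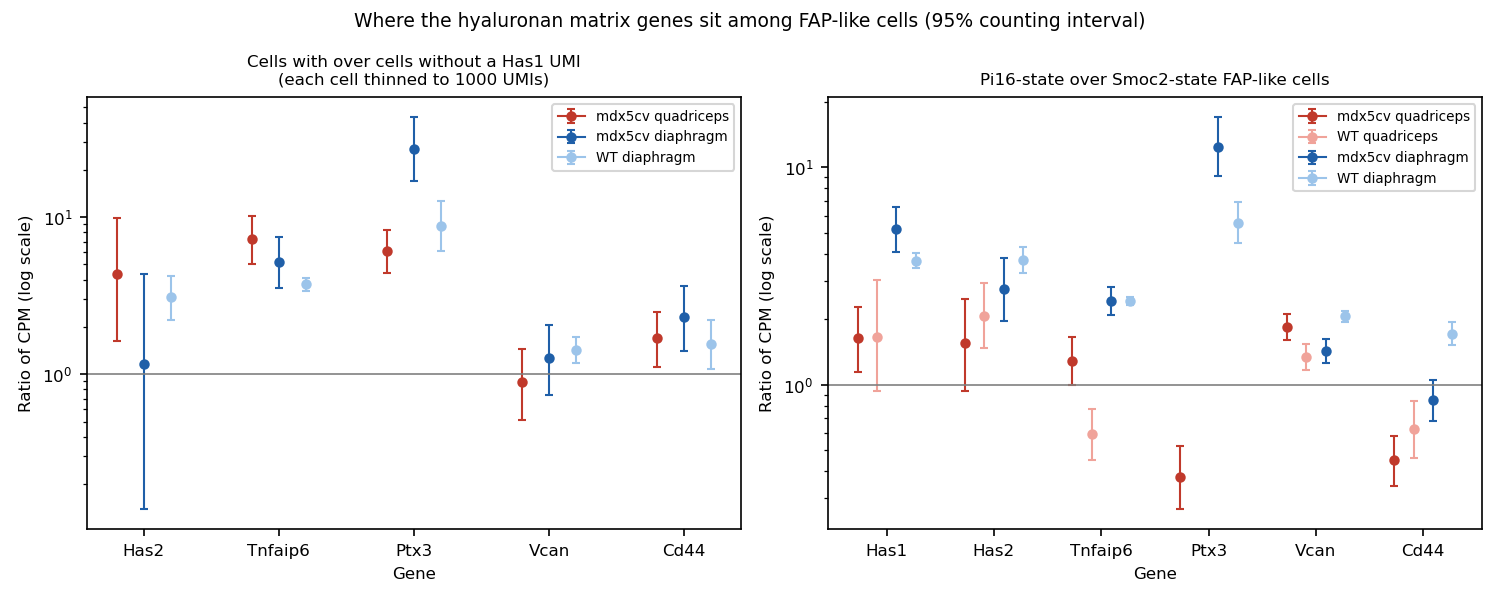
Left, ratio of CPM in FAP-like cells with a Has1 UMI to cells without one after thinning to 1000 UMIs per cell, in the 3 libraries with enough such cells; right, ratio of CPM in the Pi16 state to the Smoc2 state, both on a log axis with 95% counting intervals. On the left the Tnfaip6 ratios lie between 3.74 and 7.23; on the right the Ptx3 ratio is 0.377 in mdx5cv quadriceps and 12.5 in mdx5cv diaphragm.

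Ptx3 was concentrated in few cells. In mdx5cv quadriceps, 20 of 1455 FAP-like cells held 50% of its UMIs, and 1 cell held 96 UMIs. In mdx5cv diaphragm it was 13 of 2997 cells, and in WT diaphragm 37 of 6162. Has1 reached 50% in 41, 10, 49 and 181 cells of mdx5cv quadriceps, WT quadriceps, mdx5cv diaphragm and WT diaphragm, and Tnfaip6 in 79, 55, 149 and 316. Vcan was spread widest of these, with 161, 117, 303 and 698 cells. FAP-like cells with 5 or more Ptx3 UMIs numbered 78, 0, 23 and 45.

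FAP-like cells were further sorted by marker genes of known states, a Pi16 state of the outer connective tissue and a Smoc2 state found between fibres. Pi16-state cells were 7.08%, 34.9%, 5.44% and 20.2% of the FAP-like cells of mdx5cv quadriceps, WT quadriceps, mdx5cv diaphragm and WT diaphragm. Has1 was higher in the Pi16 than in the Smoc2 state, with 81.8 against 50.2 CPM in mdx5cv quadriceps, 117 against 22.5 CPM in mdx5cv diaphragm and 279 against 75.1 CPM in WT diaphragm. In WT quadriceps it had 25.6 against 15.4 CPM, with a ratio of 1.66 (0.94 to 3.01). Has2 leaned the same way, with ratios of 1.56 (0.94 to 2.48), 2.07, 2.76 and 3.75. Stress-high cells made up 4.85%, 4.10%, 28.8% and 63.0% of the Pi16 state and 10.9%, 20.6%, 19.1% and 71.9% of the Smoc2 state, so the Pi16 state held fewer of them in 3 of the 4 libraries.

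Between the Pi16 and Smoc2 states, Ptx3 was higher in the Smoc2 state in mdx5cv quadriceps and in the Pi16 state in both diaphragm libraries. In mdx5cv quadriceps it had 74.2 CPM in the Pi16 against 197 CPM in the Smoc2 state, a ratio of 0.377. In mdx5cv diaphragm it had 107 against 8.62 CPM, a ratio of 12.5, and in WT diaphragm 50.3 against 9.05 CPM, a ratio of 5.56. The mdx5cv quadriceps cells of no state were at 277 CPM. The mdx5cv diaphragm ratio may rest on few cells: 7 of its 163 Pi16-state cells had 5 or more Ptx3 UMIs, and 1 FAP-like cell held 93. Of the Ptx3 UMIs in mdx5cv quadriceps FAP-like cells, 47.6% lay in the Smoc2 state, 31.1% in a state marked by Postn, and 2.41% in the Pi16 state. In mdx5cv diaphragm, 36.2% lay in the Postn state, 24.95% in cells of no state, 22.5% in the Pi16 state and 14.1% in the Smoc2 state. In WT diaphragm, 52.0% lay in the Pi16 state.

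Within each of these states, the genotype differences of Has1, of Tnfaip6 in diaphragm and of Ptx3 in quadriceps had the same direction as in all FAP-like cells. Tnfaip6 in quadriceps and Ptx3 in diaphragm did not keep 1 ratio over the states: Tnfaip6 had 2.07 (1.501 to 2.86) in the Pi16 and 0.956 (0.793 to 1.16) in the Smoc2 state, and Ptx3 had 2.13 (1.71 to 2.64) and 0.953 (0.697 to 1.29). Has1 in quadriceps had a ratio of mdx5cv to WT of 3.20 in the Pi16 and 3.26 in the Smoc2 state. In diaphragm the ratio was 0.419 in the Pi16 and 0.300 in the Smoc2 state. Tnfaip6 in diaphragm was 2.96-fold and 2.97-fold lower in mdx5cv in these states. Ptx3 in quadriceps had ratios of 32.9 in the Pi16 state and 134 (37.0 to 1110) in the Smoc2 state. The WT levels were 3 UMIs (2.26 CPM) and 2 UMIs (1.47 CPM). Both are below the 3.35 CPM that free RNA was judged to give in WT quadriceps FAP-like cells. That estimate is uncertain and the counts are few, so the size of these ratios is not read. The Postn state reached 50 cells in the mdx5cv libraries only, with 343 cells in quadriceps and 521 in diaphragm. It held 35 of the 43 Cemip UMIs of mdx5cv quadriceps FAP-like cells, or 8.02 CPM.

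Outside the FAP-like cells, Has3 lay mostly in endothelial-like cells of quadriceps, which held 79.5% of its UMIs in mdx5cv and 86.6% in WT, beside 40.9% in mdx5cv diaphragm. Endothelial-like cells had 28.8 CPM of Has3 (35 UMIs) in mdx5cv quadriceps against 38.1 CPM (174 UMIs) in WT quadriceps, and 8.90 CPM (9 UMIs) in mdx5cv diaphragm against 1 UMI in 50 WT diaphragm cells. mdx5cv diaphragm was lower than mdx5cv quadriceps with a ratio of 0.310 (0.131 to 0.657), where 6.06% of the endothelial genes tested were past 2-fold lower and 2.37% higher. Hyal2 was also present there, at 41.9 CPM in mdx5cv quadriceps against 32.6 CPM in WT quadriceps, and 47.5 CPM in mdx5cv diaphragm against 26.1 CPM (3 UMIs) in WT diaphragm. Vcan had 14 UMIs or 11.5 CPM in mdx5cv quadriceps endothelial-like cells against 3 UMIs or 0.656 CPM in WT. Free RNA would give 6.53 CPM in mdx5cv and 2.42 CPM in WT, so the WT level is below background, and no fold is read. Of the 14 UMIs, 8 lay in 36 stress-high cells, and the stress-low cells had 5.54 CPM. In this comparison 9.3% of genes were past 2-fold higher and 2.9% lower.

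Muscle stem cell-like cells, the precursors of new fibres, had more Cd44 and Vcan in mdx5cv. Cd44 had 271 CPM in mdx5cv against 51.9 CPM in WT quadriceps (ratio 5.21, 3.66 to 7.67), and 230 against 74.6 CPM in mdx5cv and WT diaphragm (ratio 3.08, 1.94 to 5.19). Vcan had 83 UMIs in mdx5cv against 1 in WT quadriceps, and 89 against 3 in mdx5cv and WT diaphragm (ratio 5.28, 1.75 to 26.1). The WT quadriceps level of 1.57 CPM is below the 3.17 CPM that free RNA would give, so no fold is read there. Tnfaip6 ran the other way, with 1 UMI (0.625 CPM) in mdx5cv against 19 UMIs (29.9 CPM) in WT quadriceps. Free RNA would give 1.18 CPM in these mdx5cv cells, so their level is not above background. In diaphragm it had 5 UMIs (3.49 CPM) in mdx5cv against 45 UMIs (177 CPM) in WT, a ratio of 0.0198 (0.00613 to 0.0497). In this class 22.7% of genes were past 2-fold higher and 11.3% past 2-fold lower in mdx5cv quadriceps, and 17.3% and 12.6% in mdx5cv diaphragm, so such differences were common. The cells numbered 186, 276, 182 and 96 in mdx5cv quadriceps, WT quadriceps, mdx5cv diaphragm and WT diaphragm. A stricter gate asked for 4 markers and left out cells with 2 or more UMIs of any marker of another lineage. It kept 7 of the 186 mdx5cv and 74 of the 276 WT quadriceps cells, and 5 of the 182 mdx5cv diaphragm cells. Levels were not taken in those cells alone, and the part of other cells' transcripts in these differences was not tested. Over the whole class, median stress UMIs were 12.9, 84.6, 18.5 and 169 per 10000 in the same library order, higher in WT in both muscles. Within stress-high cells alone, Cd44 had 175 CPM in mdx5cv against 58.3 CPM in WT quadriceps, and 149 CPM in mdx5cv against 61.5 CPM in WT diaphragm. Vcan had 5 UMIs (14.8 CPM) in mdx5cv against 1 (1.88 CPM) in WT quadriceps there, and 24 (54.2 CPM) in mdx5cv against 3 (13.2 CPM) in WT diaphragm. In the same cells, Tnfaip6 had 0 UMIs in 78 mdx5cv cells against 18 in 226 WT cells of quadriceps, and 1 UMI (2.26 CPM) in 87 mdx5cv cells against 39 UMIs (171 CPM) in 87 WT cells of diaphragm. With stress-high cells left out, 9 WT diaphragm cells remained, which had 6 Tnfaip6 UMIs.

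Leukocytes carried Cd44 and, in monocytes, Vcan. Macrophage-like cells had 355 CPM of Cd44 in mdx5cv against 213 CPM in WT quadriceps (ratio 1.67), and 372 against 391.6 CPM in mdx5cv and WT diaphragm (ratio 0.951). Cd44 was the 1 member that reached 10 CPM in this class, and it was not past 2-fold in either muscle. Of all genes tested there, 12.1% were past 2-fold higher and 7.7% lower in mdx5cv quadriceps. At 1.5-fold Cd44 was past the threshold in quadriceps, where 24.9% of genes were higher and 16.3% lower. In mdx5cv diaphragm 13.3% were higher and 6.9% lower, a split of 65.9% higher among the calls that became 53.0% when scaled by the median ratio of genes. Monocyte-like cells, which reached 50 cells in the mdx5cv libraries only, had 554 CPM of Cd44 in quadriceps and 547 CPM in diaphragm, and 257 and 193 CPM of Vcan. Macrophage-like cells had 8.51 CPM of Vcan in mdx5cv quadriceps and 9.31 CPM in mdx5cv diaphragm, against which the monocyte-like cells were higher in both. Neutrophil-like cells of mdx5cv quadriceps, 53 in all, had 1747 CPM of Cd44.

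Tnfaip6 was also present in minor classes that reached 50 cells in WT quadriceps only. Glial-like cells of WT quadriceps had 100 Tnfaip6 UMIs in 69 cells, or 718 CPM, and mural-like cells 34 UMIs in 123 cells, or 142 CPM. In mdx5cv quadriceps, 26 glial-like cells had 10 UMIs (120 CPM) and 26 mural-like cells had 9 (107 CPM). Tenocyte-like cells, the cells of tendon, had 57.0 CPM in mdx5cv against 118 CPM in WT quadriceps (ratio 0.482, 0.253 to 0.899), where 10.2% of genes were past 2-fold lower and 8.61% higher. FAP-like cells held 49.3% of the Tnfaip6 UMIs of WT quadriceps, against 72.9% in mdx5cv quadriceps, 86.9% in mdx5cv diaphragm and 97.0% in WT diaphragm. Mesothelial-like cells, the lining of the diaphragm, had 3 Has1 UMIs in mdx5cv and 3 in WT diaphragm.

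The other genes of hyaluronan metabolism were counted from a list of 43, of which 25 in quadriceps and 23 in diaphragm reached 10 CPM in FAP-like cells. In quadriceps 5 were past 2-fold higher and 5 lower in mdx5cv, where 8.92% and 6.81% of all genes tested were, with a median log2 ratio of -0.08 against 0.07 over all genes tested. In diaphragm 2 were higher and 5 lower, where 4.02% and 4.53% of all genes were, with a median of 0.06 against 0.06 over all genes. The genes that make the UDP-sugar precursors were where most of the lower ones lay: of 7, none was past 2-fold higher and 4 were past 2-fold lower in each muscle. Ugdh, which makes UDP-glucuronic acid, had 153 CPM in mdx5cv against 338 CPM in WT quadriceps, and 126 against 341 CPM in mdx5cv and WT diaphragm. Gfpt2, an entry enzyme of the hexosamine pathway, had 90.2 against 299.6 CPM in mdx5cv and WT quadriceps, and 100.8 against 328 CPM in mdx5cv and WT diaphragm. Uap1, which makes UDP-N-acetylglucosamine, had 154 against 439 CPM and 133 against 446 CPM in the same pairs. These 3 were past 2-fold lower in both muscles. Gfpt1, also of the 7, ran the other way in both muscles, short of 2-fold. It had 112 CPM in mdx5cv against 77.9 CPM in WT quadriceps, and 89.9 against 62.5 CPM in mdx5cv and WT diaphragm. Of genes past 2-fold in 1 muscle, chosen after their values were seen, Gnpnat1 was lower in quadriceps, with 56.4 CPM in mdx5cv against 128 CPM in WT, and Ugp2 in diaphragm, with 123 CPM in mdx5cv against 339 CPM in WT.

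Of the rest of the list, Cemip2, a cell-surface protein related to Cemip, had 31.2 CPM in mdx5cv against 8.02 CPM in WT quadriceps, and 26.3 against 11.9 CPM in mdx5cv and WT diaphragm. Layn, the hyaluronan receptor layilin, had 29.9 against 9.21 CPM and 33.3 against 12.9 CPM in the same pairs. Both were past 2-fold higher in both muscles. The remaining genes were past 2-fold in 1 muscle and, like the others of that kind, were chosen after their values were seen. The versican-cleaving protease gene Adamts1 was lower in mdx5cv diaphragm, with 111 CPM against 265 CPM in WT diaphragm, and had 102 against 108 CPM in mdx5cv and WT quadriceps. Adamts4, of the same family, was higher in mdx5cv quadriceps, with 27.6 CPM against 7.43 CPM in WT, and had 17.2 against 13.4 CPM in diaphragm. Adamts5 was lower in mdx5cv quadriceps, with 353 CPM against 735 CPM in WT, and had 180.1 against 342 CPM in diaphragm. Hmmr, an intracellular hyaluronan-binding protein gene of dividing cells, and the scavenger receptor gene Stab1 were past 2-fold higher in mdx5cv quadriceps, with 12.6 against 0.892 CPM of Hmmr (3 UMIs in WT) and 10.3 against 2.97 CPM of Stab1 in mdx5cv and WT. The heavy-chain gene Itih5, also chosen afterwards and related to the proteins that TSG-6 transfers, stood at 801 and 927 CPM in mdx5cv and WT quadriceps and at 540 and 480 CPM in mdx5cv and WT diaphragm, none past 2-fold. Without stress-high cells, 4 were higher and 5 lower of 24 in quadriceps, and 2 higher and 6 lower of 23 in diaphragm.

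Across 33 class-by-library sums, the genes whose log2(CPM + 10) ran most like each member were found by Pearson's r among 12909 genes, as a description of sums that share libraries. For Has1 they were Tmem132c (r = 0.90), Fgf7 (0.88) and C1qtnf7 (0.87), and for Has2 they were Dpep1, Fgf7 and Gdf10 (0.96 each). For Tnfaip6 they were Abca8a (0.88), Abca8b (0.87) and Chadl (0.87). Ptx3 ran with Cxcl5 (0.94), a neutrophil-attracting chemokine, and with Dio3 and Cyp1b1 (0.90 each). For Has3 they were Prom1 (0.94), Samd12 (0.93) and Cdh23 (0.93). Hyal2 ran with Ppm1f (0.89), Ephb4 (0.87) and Ripor1 (0.87). Vcan and Cd44, spread over more classes, had lower values, with Sra1 (0.77), Ufm1 and Adamtsl4 (0.75 each) for Vcan and Cdc34 (0.80), Sin3b (0.78) and Mapk6 (0.77) for Cd44. Some of these genes were low even in their highest sum, beside the 10 CPM added. Tmem132c reached 19.6 CPM, Chadl 28.7 CPM, Dio3 14.7 CPM and Prom1 30.0 CPM.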

How the data were processed

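Raw UMI counts per gene and barcode were used as deposited, 1 matrix for each of the 4 libraries. The submitters' processing notes name Cell Ranger 5.0.0 and mm10, while the matrix headers name version 4; the deposited matrices had not been filtered for cells. Barcodes with 1000 UMIs, 500 genes and at most 15% mitochondrial UMIs were kept. Libraries were not merged or integrated, and no cell was clustered. A marker was counted in a cell when its UMIs exceeded a free-RNA share of 10% (Poisson tail below 0.01, free RNA from barcodes of 10 to 100 UMIs). Cells with 3 or more counted markers of 1 lineage were named for it, and those of more than 1 lineage (498, 202, 359 and 151 in mdx5cv quadriceps, WT quadriceps, mdx5cv diaphragm and WT diaphragm) were left out as possible doublets. Cells with no class numbered 1410, 680, 792 and 344. Scrublet (scanpy 1.11.5) was used only as an alternative. A FAP state needed 2 of its markers.

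UMIs were summed per class and library. Levels carry exact Poisson intervals and ratios exact conditional binomial intervals, with counting error only. A gene was called at 2-fold or more and at least 10 CPM in the higher library, with counts under 3 set to 3. The members, and of the pathway list the genes past 2-fold the same way in both muscles, are named, with the 3 genes most like each member. The members and lists were chosen with earlier results of these data known. The calling step was tested on simulated data. Python 3.11.15, numpy 2.4.6, scipy 1.17.1 and pandas 2.3.3 were used. The alternatives were other cut-offs, gates, scalings and thinning.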

Additional observations from a re-analysis of the deposited data

Results flagged for a closer look

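Has1 in FAP-like cells was lower in mdx5cv than in WT diaphragm and higher in mdx5cv than in WT quadriceps. The log2 ratio of mdx5cv to WT was 1.38 in quadriceps and -2.16 in diaphragm. The quadriceps value minus the diaphragm value was 3.53 (3.13 to 3.94, counting error only). With 1 library in each group there is 1 difference per muscle, so no agreement among samples can be read, and the difference between the muscles was not tested. Stress-high cells made up 18.8% of FAP-like cells in mdx5cv and 69.2% in WT diaphragm, and 9.21% in mdx5cv and 14.4% in WT quadriceps. Without cells at 5 or more stress UMIs per 10000, the diaphragm ratio was 0.894 (0.691 to 1.17) and no longer past 2-fold, and in cells with no stress UMI it was 1.57 (0.869 to 3.07). Within single bins from 5 to under 80 per 10000, the diaphragm ratio was 0.341, 0.232, 0.360 and 0.338, and at 80 or more it was 0.623 (0.362 to 1.002).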

How the results depend on the processing

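No paired analysis was possible because each group has 1 library, which also leaves no replicate to leave out. Of 240 values of the members' ratios under the alternatives, 182 stayed within their counting interval and 58 moved, and no called value reversed. A stricter class gate required 4 markers for FAP-like cells and left out cells with 2 or more UMIs of any marker of another lineage. It kept 628 of 1455 mdx5cv and 583 of 909 WT quadriceps FAP-like cells. In FAP-like cells the count of members past 2-fold lower in mdx5cv diaphragm was 1 rather than 2 without cells at 5 or more stress UMIs per 10000, since Has1 was no longer past it. The count higher was 2 rather than 1 in that setting and with the stricter class gate. In mdx5cv quadriceps the higher count was 5 rather than 3 with no filter on low values, and the lower count was 1 rather than 0 with thinning to 1000 UMIs, at 1.5-fold or with no filter. The WT comparison of diaphragm with quadriceps had 1 member lower rather than 0 with no filter, and its Ptx3 call was lost without cells at 5 or more, where Ptx3 was under 10 CPM. Between mdx5cv muscles, Has1 was past 2-fold lower in diaphragm with the stricter class gate (log2 ratio -1.10). In macrophage-like cells the count past 2-fold was 0; for diaphragm it was 2 without cells at 5 or more, 1 with thinning and 3 with no filter, and for quadriceps it was 1, 2 and 5 in these settings and 1 at 1.5-fold. For the pathway list in quadriceps, 3 rather than 5 were higher with thinning or the stricter class gate, and 3 rather than 5 lower with thinning. Where not stated, the cause was not tested. Scaling by the median ratio of genes shifted the FAP-like log2 ratios by 0.05 and 0.06 in the genotype comparisons of quadriceps and diaphragm. The shift was -0.12 between mdx5cv muscles, -0.10 between WT muscles, and 0.09 and 0.17 in macrophage-like cells of quadriceps and diaphragm; no member's call changed in the FAP-like comparisons. Has3, Hyal1, Hyal2 and Cemip were left uncalled in FAP-like cells by the 10 CPM minimum.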

Other observations

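The barcodes with 10 to 100 UMIs, from which free RNA was judged, had 58.7 and 53.3 CPM of Ptx3 in mdx5cv and WT quadriceps, and 85.1 and 77.1 CPM in mdx5cv and WT diaphragm. The WT quadriceps value, from 48 UMIs, stands beside 2.08 CPM in its FAP-like cells. Endothelial-like cells of WT quadriceps had no Ptx3 UMI, where free RNA at that level would give 1.94 CPM. No explanation of this was tested.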
